A study of Mus musculus with 17 samples.

Results

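Type I interferon-stimulated genes were followed through the mammary glands of 4 mouse genotypes. The group was fixed as 36 gene symbols, each matched to the rows of the deposited table that carried that symbol alone. Of the 36 genes, 35 had such a row, in 39 rows, out of 30843 loci in the table and 12782 genes analysed. The remaining gene, Irf9, was listed only in a locus shared with the neighbouring gene Rnf31. Polyadenylated RNA of whole mammary glands from nulliparous female C57Bl/6 mice had been sequenced in 17 libraries, namely 3 of WT, 5 each of AROM and CERM, and 4 of BRCA. WT is wild type. AROM is tet-op-CYP19A1MMTV-rtTA, in which a tetracycline-controlled gene of aromatase, the enzyme that makes estrogens, is switched on by a transactivator under the MMTV promoter. CERM is tet-op-Esr1MMTV-rtTA, where the controlled transgene is that of estrogen receptor alpha. BRCA is Brca1fl11/fl11/MMTV-Cre/p53+/-, in which MMTV-driven Cre recombines the floxed exon 11 of Brca1, a DNA repair gene, in mice with 1 functional Trp53 allele. MMTV is active mainly in mammary epithelium, so the transactivator and the Cre act in some of the cells sampled, while the RNA is that of the whole gland. Neither the age of the mice nor any inducing agent is given in the sources used here.

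Type I interferons bind a receptor of the Ifnar1 and Ifnar2 chains, whose kinases Jak1 and Tyk2 phosphorylate STAT proteins, among them Stat2. With Irf9 these form the factor ISGF3, which binds the interferon-stimulated response element in front of the target genes and raises their transcription. The products block viral entry, translation and replication, sense foreign nucleic acid, and in part amplify or damp the response itself. In the mammary gland these genes are known to be expressed by epithelial, stromal and immune cells alike.

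The table gives 1 pooled FPKM value (fragments scaled to transcript length and to the fragments mapped) per gene for each genotype and read layout, single-end or paired-end, hence 8 values per gene. No value has a replicate spread, so no p-value was computed, and a gene is called higher or lower when FPKM + 1 differed at least 2-fold. The added 1 understates the change of weakly expressed genes. The sequencing depth behind the columns is unknown. Per the labels' protocols, libraries were sequenced by both methods, so the layouts may share libraries and animals and are not counted as replicates. Both WT columns carry decimals as of means of 3 values, in 56.3% and 54.8% of their values above 0, although the labels give 2 single-end libraries and 1 paired-end library of WT. Which values were averaged was not settled, and every comparison with WT carries this limit. Esr1 ranged from 6.48 to 8.49 FPKM and did not set the columns labelled CERM apart from AROM. Cyp19a1 was at 0.0591 and 0.0502 FPKM in the columns labelled AROM, values near 0, and was listed at 0 in the others. Whether reads of the transgene, written CYP19A1 in the label, enter this mouse row is unknown, so its level cannot be read from it. Trp53 was lowest in the columns labelled BRCA (12.3 and 12.1 FPKM, against 20.9 to 41.1 elsewhere). Brca1 was highest there (3.28 and 3.29 FPKM, against 0.536 to 1.13), and the state of exon 11 cannot be read from a value that covers the locus. The genotype names below are therefore those of the column labels. The tissue label was matched by its markers: the luminal genes Epcam and Krt8 stood at 41.8 to 173 and 63.4 to 212 FPKM, and the fat cell gene Adipoq at 600.0 to 1885 FPKM.

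The promoters of these genes were searched for the letters that ISGF3 and related factors bind. In the RefSeq promoter sequences (mouse build GRCm38.p6, a later build than the mm9 of the deposited values), 26 of the 36 genes had an entry, each reaching from 250 bases before to 50 bases after a start site. The response element was searched on either strand as TTTC, any 2 bases and TTTC again, and the gamma-activated site as TTCNNNGAA, which reads alike on both strands. The response element was found in 12 of the 26 genes (46.2%), against 3.99% of the 27025 symbols in the promoter table. They were Stat2, Isg15, Ifit1, Ifit3, Oas1a, Oas3, Ifih1, Ddx58, Eif2ak2, Rsad2, Bst2 and Ifitm3. TTCNNNGAA was found in 6 of the 26 (Ifit2, Oas1a, Eif2ak2, Ifi35, Bst2 and Ifitm3), against 9.55% of all symbols. A match is a run of letters and not a measured binding site. The stretch from 250 to 51 bases before the start site is given for 6 genes that differ in how far they stood from WT, from Ifit1 to Rsad2, 5′ to 3′ on the strand of the gene, with matches to the response element on either strand in capitals. The windows are chr4:156200869-156201068 (minus strand) for Isg15, chr19:34640639-34640838 (plus strand) for Ifit1, chr19:34583279-34583478 (plus strand) for Ifit3, chr12:26456503-26456702 (minus strand) for Rsad2, chr8:71537523-71537722 (minus strand) for Bst2 and chr10:128270248-128270447 (plus strand) for Stat2.
Isg15: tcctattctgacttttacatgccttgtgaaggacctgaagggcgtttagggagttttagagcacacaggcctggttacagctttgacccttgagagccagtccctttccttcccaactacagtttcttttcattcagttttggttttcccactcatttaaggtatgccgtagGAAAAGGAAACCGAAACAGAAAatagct
Ifit1: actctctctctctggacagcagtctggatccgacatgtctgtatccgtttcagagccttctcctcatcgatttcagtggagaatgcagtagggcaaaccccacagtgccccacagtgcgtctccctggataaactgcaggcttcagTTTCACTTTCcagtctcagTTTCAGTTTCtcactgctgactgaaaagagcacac
Ifit3: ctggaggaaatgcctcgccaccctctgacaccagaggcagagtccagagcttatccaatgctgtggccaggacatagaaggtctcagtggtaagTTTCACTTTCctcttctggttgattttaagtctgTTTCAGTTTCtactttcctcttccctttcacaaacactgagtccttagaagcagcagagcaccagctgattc
Rsad2: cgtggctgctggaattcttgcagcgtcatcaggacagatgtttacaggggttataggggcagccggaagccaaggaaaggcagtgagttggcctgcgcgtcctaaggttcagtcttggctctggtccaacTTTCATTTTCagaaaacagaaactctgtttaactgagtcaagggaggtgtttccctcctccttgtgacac
Bst2: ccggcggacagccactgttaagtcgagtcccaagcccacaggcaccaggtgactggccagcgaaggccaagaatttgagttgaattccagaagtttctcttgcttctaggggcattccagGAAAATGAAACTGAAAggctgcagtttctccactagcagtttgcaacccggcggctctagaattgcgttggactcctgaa
Stat2: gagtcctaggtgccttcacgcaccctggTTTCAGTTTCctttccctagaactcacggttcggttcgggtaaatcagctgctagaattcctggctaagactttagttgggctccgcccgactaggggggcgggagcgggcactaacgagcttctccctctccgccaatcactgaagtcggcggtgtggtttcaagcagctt
Isg15 held 3 matches that overlap head to tail, the first starting 78 bases before the start site. Ifit1 and Ifit3 each held 2 separate matches with the same letters, TTTCACTTTC and then TTTCAGTTTC, starting 104 and 85 bases before the start site in Ifit1 and 156 and 122 before it in Ifit3. Bst2 held 2 overlapping matches, while Rsad2 and Stat2 held 1 each. Irf7, Oasl1, Oasl2, Ifi44 and Xaf1 had an entry and no match to it in this window.

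The comparison of BRCA with WT asked how these genes stand in the Brca1 model. Nearly all were higher in the columns labelled BRCA, in both layouts: 34 of 35 lay above 0 in both, all but Ifi27l2a, where 50.4% of all genes did. At least 2-fold higher were 20 of 35 in the single-end columns, where 3.65% of all genes were, and 24 of 35 in the paired-end columns, where 5.01% were. The 20 genes of the single-end columns were all past 2-fold in the paired-end ones too, where 3.01% of all genes passed in both layouts. None was 2-fold lower (1.96% and 1.29% of all genes were). The median log2 ratio was 1.25 single-end and 1.37 paired-end, beside 0.04 and 0.11 over all genes. All 35 genes passed the filter on low values, set at an FPKM of 1 reached in 2 or more of the 8 columns. Oas3 and Mx1 passed it through the BRCA columns only, so that their difference was a condition of their being counted. Without them, 18 of 33 were at least 2-fold higher in both layouts. None of the 35 genes differed by over 1.5-fold between the layouts in this ratio, where 391 of all 12782 genes did. The same BRCA columns held more leukocyte RNA: the summed level of 5 leukocyte genes was 223 and 229 FPKM, single-end and paired-end, against 81.0 and 67.6 in WT, and its part in these ratios was not tested. In whole glands more cells of a type and more RNA per cell cannot be told apart.

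**Figure D1:**
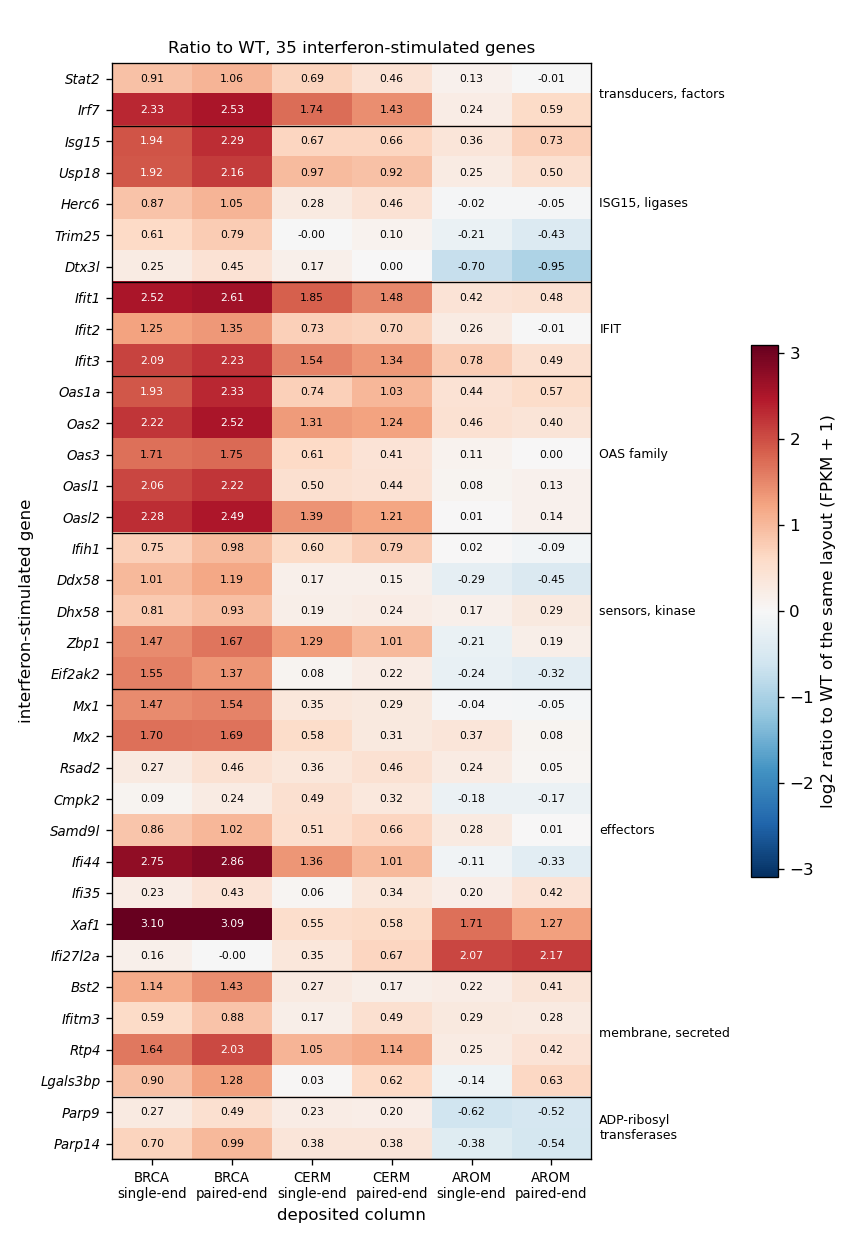
Log2 ratio of FPKM + 1 to the WT column of the same layout (colour and printed value) for 35 interferon-stimulated genes (rows, grouped by role) in the BRCA, CERM and AROM columns of each layout. BRCA is positive in nearly every row, the largest CERM ratios are in Ifit1, Irf7 and Ifit3, and AROM stands out in Xaf1 and Ifi27l2a.

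Of the signal transducers, Irf7 stood furthest from WT. Irf7 encodes the factor that amplifies the response by driving interferon genes. With the single-end value given before the paired-end value, here and for the genes that follow, it was at 7.21 and 5.78 FPKM in WT, 8.67 and 9.19 in AROM, 26.4 and 17.3 in CERM, and 40.3 and 38.0 in BRCA. BRCA was highest and CERM second in both layouts, and neither AROM column exceeded either CERM column. Stat2, the subunit that carries the activation domain of ISGF3, differed by less and was at 5.42 and 4.71 FPKM in WT, 6.05 and 4.68 in AROM, 9.34 and 6.84 in CERM, and 11.1 and 10.9 in BRCA. The log2 ratio of BRCA to WT was 0.91 and 1.06 for Stat2, just under 2-fold in the single-end columns and past it in the paired-end ones, against 2.33 and 2.53 for Irf7. The locus that joins Irf9, the DNA-binding subunit of ISGF3, with Rnf31 was at 21.4 and 18.1 FPKM in WT, 20.3 and 16.3 in AROM, 29.6 and 23.6 in CERM, and 28.5 and 28.1 in BRCA. Reads of both genes enter that value, so it was counted for neither.

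Isg15 encodes a ubiquitin-like protein that is attached to other proteins during the response. Isg15 was at 6.90 and 5.22 FPKM in WT, 9.16 and 9.32 in AROM, 11.6 and 8.82 in CERM, and 29.4 and 29.4 in BRCA. The BRCA columns were 4.26 and 5.63 times WT in plain FPKM, and the CERM and AROM columns lay close to each other. Usp18, whose product removes Isg15 and blocks the receptor, was likewise highest in BRCA, at 1.78 and 1.13 FPKM in WT, 2.31 and 2.02 in AROM, 4.47 and 3.03 in CERM, and 9.55 and 8.52 in BRCA. A second row of Usp18 with lower values went another way, with its highest value, 3.66 FPKM, in AROM single-end and 0.352 FPKM in BRCA paired-end. The ligases differed by less. Herc6, the main mouse ligase for Isg15, had log2 ratios of BRCA to WT of 0.87 and 1.05. Trim25, which activates the sensor encoded by Ddx58, had 0.61 and 0.79, and Dtx3l, a ubiquitin ligase that pairs with Parp9, had 0.25 and 0.45. A second, weak row of Trim25 was likewise highest in BRCA in both layouts, at 1.54 and 0.772 FPKM.

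All 3 IFIT genes, whose products bind viral RNA and halt its translation, were at least 2-fold higher in BRCA in both layouts. Ifit1 was at 1.45 and 1.22 FPKM in WT, 2.28 and 2.09 in AROM, 7.83 and 5.18 in CERM, and 13.1 and 12.6 in BRCA. Both BRCA values of Ifit1 exceeded every other column, and both CERM values exceeded every WT and AROM value. Ifit3 was at 1.83 and 2.30 FPKM in WT, 3.85 and 3.64 in AROM, 7.24 and 7.33 in CERM, and 11.04 and 14.4 in BRCA. Ifit2 was lower in range, from 1.88 FPKM in AROM paired-end to 6.65 in BRCA single-end. The matches printed above lie in front of Ifit1 and Ifit3, and Ifit2 had none in its windows. Ifit genes have close copies beside them, and reads shared between copies could not be separated.

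The oligoadenylate synthetases make the messenger that activates RNase L, while mouse Oasl1 lacks this activity. All 5 members were at least 2-fold higher in BRCA in both layouts, with median log2 ratios of 2.06 and 2.33. Oas2 was at 0.90 and 0.459 FPKM in WT, 1.61 and 0.920 in AROM, 3.71 and 2.44 in CERM, and 7.83 and 7.35 in BRCA. Oasl2, the most abundant of the family per length, was at 4.42 and 3.38 FPKM in WT, 4.48 and 3.82 in AROM, 13.2 and 9.15 in CERM, and 25.4 and 23.7 in BRCA. The CERM columns of both genes lay between BRCA and the other columns. Oasl1, which restrains the translation of Irf7, stood apart in BRCA only, with 6.07 and 6.12 FPKM against at most 1.41 in any other column. Oas1a was represented by the higher of its 2 rows, at 0.679 to 7.43 FPKM, and its second row ranged from 0.166 FPKM in WT paired-end to 1.92 in BRCA single-end. Oas3 stayed under 1 FPKM outside the BRCA columns, where it was at 3.18 and 3.25. Oas1 genes are a family of near-identical copies, so their reads may be shared.

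Among the sensors of foreign nucleic acid, Ddx58 (the gene of RIG-I), Zbp1 and the RNA-dependent kinase gene Eif2ak2 passed 2-fold in both layouts, and Ifih1 and Dhx58 in neither. Zbp1, whose product senses Z-form nucleic acid, was at 5.58 and 4.62 FPKM in WT, 4.69 and 5.43 in AROM, 15.1 and 10.3 in CERM, and 17.2 and 16.9 in BRCA. In the single-end columns CERM came close to BRCA, and AROM was below WT there and above it in the paired-end columns. Eif2ak2 stood apart in BRCA alone: its BRCA columns were at 32.5 and 24.1 FPKM, and the other 6 columns all lay between 6.79 and 11.03. Ddx58 spanned 5.34 to 10.7 FPKM outside BRCA and 18.8 to 19.9 in it. Ifih1, which encodes the sensor MDA5, was at 3.87 and 2.94 FPKM in WT, 3.94 and 2.69 in AROM, 6.38 and 5.82 in CERM, and 7.18 and 6.76 in BRCA. Dhx58, the gene of the regulator LGP2, was at 3.401 and 3.05 FPKM in WT, 3.94 and 3.96 in AROM, 4.01 and 3.77 in CERM, and 6.70 and 6.69 in BRCA. A second, weaker row of Dhx58 was highest in BRCA single-end at 1.08 FPKM, and in CERM paired-end at 1.04 against 0.847 in BRCA.

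The antiviral effectors were the most divided group. Ifi44, an interferon-inducible gene of incompletely known function, was at 1.79 and 1.44 FPKM in WT, 1.59 and 0.938 in AROM, 6.16 and 3.91 in CERM, and 17.8 and 16.8 in BRCA. Its BRCA columns were 9.92 and 11.6 times WT in plain FPKM. Mx1, a dynamin-like GTPase gene that is defective in most laboratory strains, was at 0.467 and 0.298 FPKM in WT, 0.430 and 0.255 in AROM, 0.864 and 0.588 in CERM, and 3.08 and 2.77 in BRCA. All Mx1 values outside BRCA were under 1 FPKM, and Mx2 likewise was highest in BRCA, at 4.21 and 4.0 FPKM. Rsad2, the gene of viperin, which makes a chain-terminating nucleotide, was at 2.15 and 1.80 FPKM in WT, 2.73 and 1.90 in AROM, 3.05 and 2.85 in CERM, and 2.81 and 2.85 in BRCA. CERM and BRCA lay close together in Rsad2, and no pair of genotypes was 2-fold apart. Its neighbour Cmpk2, a nucleotide kinase gene, was highest in CERM in both layouts, at 6.09 and 4.68 FPKM against 4.37 and 4.38 in BRCA. Samd9l had log2 ratios of BRCA to WT of 0.86 and 1.02, and Ifi35 of 0.23 and 0.43.

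Of the membrane and secreted products, Bst2 (tetherin, which holds budding virus at the cell surface) and Rtp4 (a chaperone of membrane receptors) passed 2-fold in BRCA in both layouts. Bst2 was at 48.2 and 38.7 FPKM in WT, 56.4 and 51.7 in AROM, 58.4 and 43.7 in CERM, and 108 and 106 in BRCA. Rtp4 was at 8.36 and 5.54 FPKM in WT, 10.1 and 7.74 in AROM, 18.4 and 13.5 in CERM, and 28.2 and 25.8 in BRCA. For Rtp4 the CERM columns also exceeded every WT and AROM value, whereas the Bst2 values of CERM and AROM overlapped. Ifitm3, which blocks viral fusion and is abundant in resting tissue, was at 178 and 143 FPKM in WT, 219 and 174 in AROM, 200.5 and 202 in CERM, and 268 and 264 in BRCA. Its BRCA columns were highest, and none was 2-fold from WT. Lgals3bp, a secreted glycoprotein gene, was at 64.5 and 51.1 FPKM in WT, 58.3 and 79.8 in AROM, 66.0 and 79.3 in CERM, and 121 and 125 in BRCA. Layout mattered for Lgals3bp: the log2 ratio of CERM to WT was 0.03 and 0.62, and that of AROM to WT -0.14 and 0.63, single-end and paired-end. Parp9 and Parp14, ADP-ribosyltransferase genes, were not 2-fold from WT in BRCA, with log2 ratios of 0.27 and 0.49 and of 0.70 and 0.99.

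**Figure D2:**
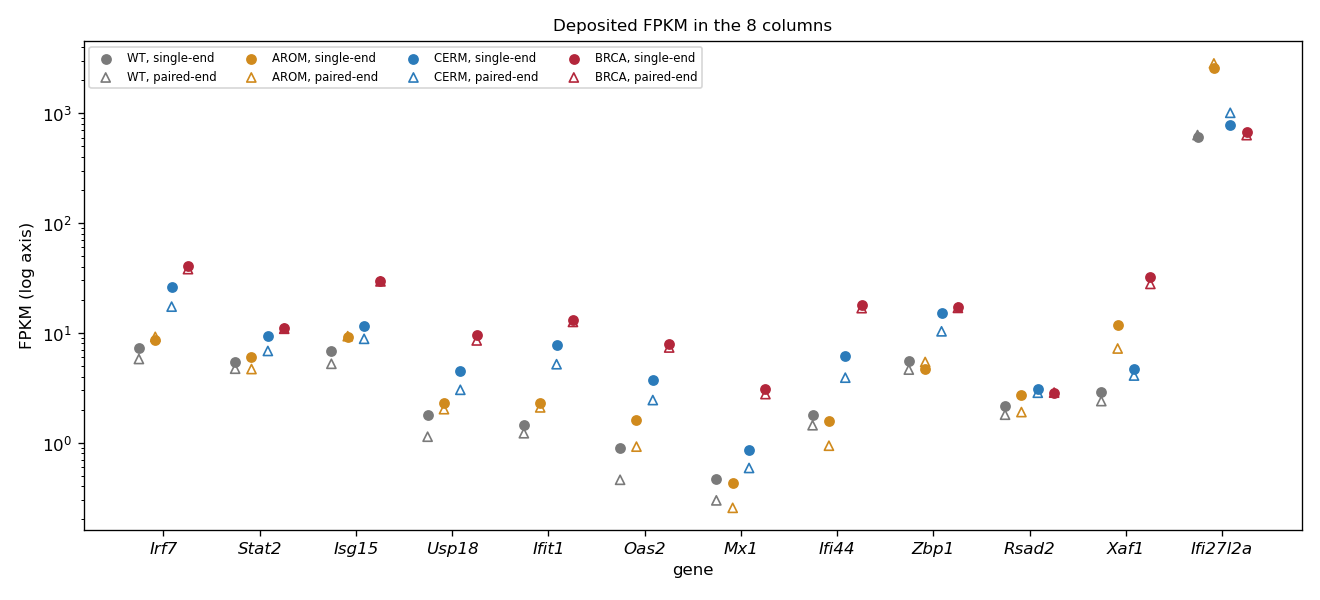
Deposited FPKM (log axis) of 12 interferon-stimulated genes in the 8 columns, coloured by genotype, with filled circles for single-end and open triangles for paired-end columns. BRCA is highest for most genes, Rsad2 is nearly level in CERM and BRCA, and Ifi27l2a is highest in AROM at 2555 and 2839 FPKM.

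In the CERM glands the same question was asked of the Esr1 transgene, and fewer genes stood apart. At least 2-fold higher than WT were 8 of 35 in the single-end columns (3.64% of all genes) and 9 of 35 in the paired-end ones (3.72%). The 8 past 2-fold in both layouts, where 1.12% of all genes passed, were Irf7, Ifit1, Ifit3, Oas2, Oasl2, Zbp1, Ifi44 and Rtp4, and Oas1a passed in the paired-end columns alone. None was 2-fold lower, which 1.06% and 0.9% of all genes were. The median log2 ratio was 0.51 and 0.49, beside -0.04 and 0.04 over all genes. Above 0 in both layouts were 34 of 35, all but Trim25, where 34.2% of all genes were. On the scale of FPKM + 1 the highest log2 ratios in both layouts were those of Ifit1, 1.85 and 1.48, and Irf7, 1.74 and 1.43. In plain FPKM, Oas2 was 4.12 and 5.32 times WT, Ifit1 5.38 and 4.25 times, Ifit3 3.96 and 3.19 times and Irf7 3.66 and 3.0 times. At the other end, Trim25, Ddx58, Eif2ak2 and Parp9 had log2 ratios between -0.0041 and 0.23. Within the IFIT genes the CERM ratios ran in the order Ifit1, Ifit3, Ifit2, in both layouts.

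**Figure D3:**
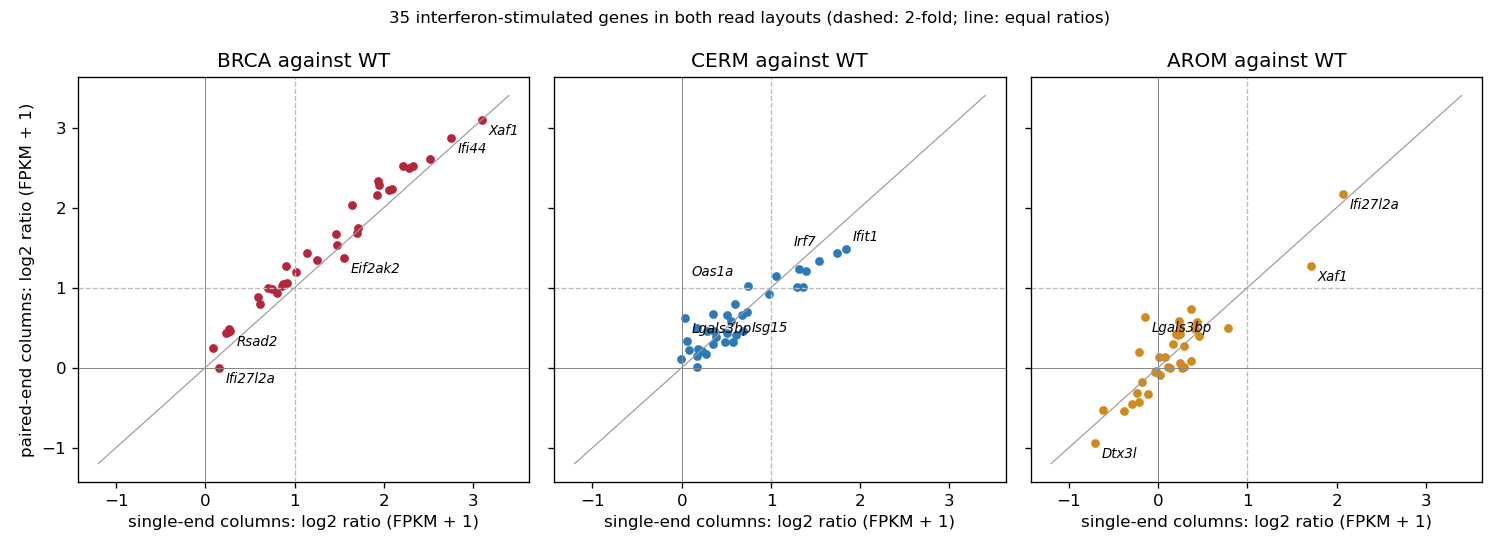
Log2 ratio of FPKM + 1 to WT in the single-end (x axis) and paired-end columns (y axis) for 35 interferon-stimulated genes, 1 panel per genotype, with dashed lines at 2-fold and a line of equal ratios. The ratios on the 2 axes are over 1.5-fold apart for 0 points in BRCA and for 1 in CERM and 1 in AROM, Lgals3bp in each. Past 2-fold on both axes are 20 points for BRCA, 8 for CERM and 2 for AROM.

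In AROM, compared with WT to ask about the aromatase transgene, only Xaf1 and Ifi27l2a of the 35 genes were at least 2-fold higher, in both layouts. That is 2 of 35, where 2.32% of all genes were higher single-end, 1.99% paired-end and 0.383% in both. None was 2-fold lower, where 1.77% and 2.83% of all genes were. Above 0 in both layouts were 20 of 35 (30.9% of all genes), and below 0 in both 10 of 35 (40.8%). The median log2 ratio was 0.17 and 0.13, beside -0.0036 and -0.08 over all genes. Ifi27l2a, whose product is a small protein of mitochondrial and nuclear membranes, was at 609 and 632 FPKM in WT, 2555 and 2839 in AROM, 777 and 1008 in CERM, and 678 and 631 in BRCA. It was the most abundant of the 35 genes in every column, and AROM was 4.19 and 4.49 times WT while BRCA was 1.11 and 0.999 times. Xaf1, an inhibitor of the anti-apoptotic protein Xiap, was at 2.89 and 2.39 FPKM in WT, 11.7 and 7.197 in AROM, 4.69 and 4.08 in CERM, and 32.3 and 27.9 in BRCA. Xaf1 was thus far above WT in BRCA, intermediate in AROM, and under 2-fold from WT in CERM. The lowest ratios were those of Dtx3l, Parp9 and Parp14, with log2 ratios of AROM to WT of -0.70 and -0.95, -0.62 and -0.52 and -0.38 and -0.54. Dtx3l and Parp9 are neighbours that share a promoter region, and AROM held the lowest value of each in both layouts.

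The comparisons without WT do not carry the limit of the averaged WT columns. BRCA against AROM had 20 of 35 genes at least 2-fold higher single-end (5.48% of all genes) and 28 of 35 paired-end (10.7%), 19 of them in both layouts (4.87%). Without Oas3 and Mx1, which passed the filter through the BRCA columns only, 17 of 33 were higher in both. Ifi27l2a was the 1 gene 2-fold lower in BRCA, in both layouts, where 3.1% and 4.37% of all genes were lower and 1.42% in both. The highest log2 ratio was that of Ifi44, 2.86 and 3.20. BRCA against CERM had 9 of 35 higher single-end (3.02%) and 16 of 35 paired-end (2.94%), with none lower (3.11% and 2.48% of all genes). The 9 past 2-fold in both layouts (1.88%) were Isg15, Oas1a, Oas3, Oasl1, Eif2ak2, Mx1, Mx2, Ifi44 and Xaf1. Without Oas3 and Mx1, whose difference was a condition of their being counted, 7 of 33 passed in both. The median log2 ratio of BRCA to CERM was 0.62 and 0.89, beside 0.06 in each layout over all genes. Zbp1, Ifih1, Parp9, Rsad2 and Cmpk2 had log2 ratios of BRCA to CERM from -0.40 to 0.66 over both layouts.

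CERM against AROM sets the 2 transactivator-carrying models side by side. Higher in CERM by 2-fold were Zbp1, Irf7, Ifi44, Ifit1 and Oasl2 single-end (5 of 35, where 1.92% of all genes were) and Ifi44 and Oasl2 paired-end (2 of 35, where 4.21% were). Those passing in both layouts were Ifi44 and Oasl2, where 1.41% of all genes passed. Ifi27l2a was 2-fold lower in CERM in both layouts (0.196% of all genes) and Xaf1 in the single-end columns, where 0.837% of all genes were lower, and 2.26% were in the paired-end ones. Median log2 ratios were 0.46 and 0.50, beside -0.02 and 0.18 over all genes. Across all 4 genotypes BRCA held the highest value in 32 of 35 genes in both layouts, where 33.5% of all genes had it. Rsad2, Cmpk2 and Ifi27l2a were the exceptions. Oas3 and Mx1, which passed the filter through the BRCA columns only, are among the 32. CERM came second to BRCA in 24 of 35 genes in both layouts, where 9.82% of all genes showed that order. Oas3 and Mx1 are among these 24 too.

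**Figure D4:**
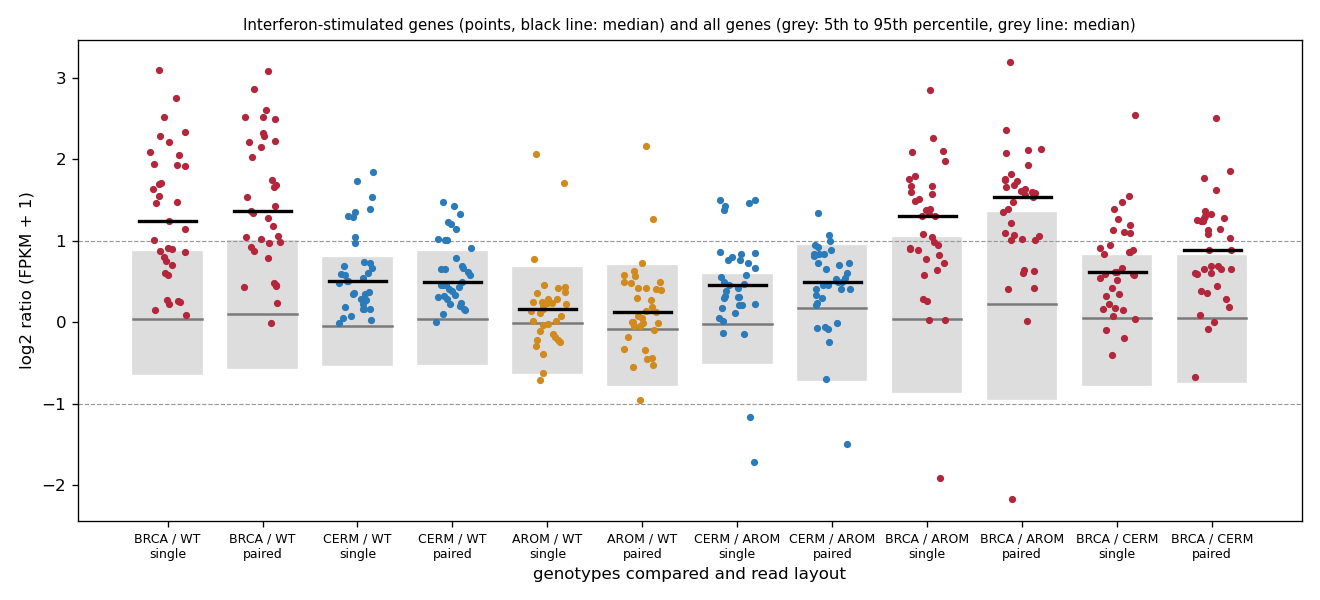
Log2 ratio of FPKM + 1 for 35 interferon-stimulated genes (points, coloured by the genotype in the numerator, black line at the median) in 6 comparisons and 2 layouts, over the 5th to 95th percentile of all 12782 genes (grey box) and their median (grey line). In BRCA against WT and against AROM the black line lies above the grey box, and in AROM against WT it lies near the grey line.

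The scale of the paired-end AROM column touches these counts. Over all genes the median log2 ratio was 0.22 for BRCA against AROM, 0.18 for CERM against AROM and 0.11 for BRCA against WT in the paired-end columns. After median-ratio scaling, 21 of 35 genes were higher in BRCA than in AROM paired-end, with a median of 1.29, and 1 was higher in CERM than in AROM. The same scaling turned the split of all calls for BRCA against AROM paired-end from 1367 higher and 559 lower to 855 and 1058. It changed the split from 538 and 289 to 381 and 484 for CERM against AROM, from 254 and 362 to 404 and 296 for AROM against WT, and from 640 and 165 to 492 and 222 for BRCA against WT. In that last comparison 21 of the 35 interferon-stimulated genes were at least 2-fold higher after scaling, with a median of 1.25.

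The genes upstream of the response were followed from lists of the pathway. Interferon genes themselves were at or near 0: Ifnb1 was listed at 0 in 6 of the 8 columns and reached 0.0221 FPKM, and Ifna2 and Ifna4 were listed at 0 in all 8. Ifnar1 was at 8.56 and 7.45 FPKM in WT, 8.29 and 6.85 in AROM, 8.39 and 8.73 in CERM, and 12.4 and 12.2 in BRCA, highest in BRCA and under 2-fold from WT. Ifnar2 had no row of its own and was not analysed here. Of 3 genes analysed from other interferons and their receptors, none was 2-fold from WT in any model. Of the 10 kinases, STAT and IRF factors, Irf8, a factor of myeloid and dendritic cells, was 2-fold higher in BRCA in both layouts. Over all genes 3.01% were. Jak1 reached 46.2 FPKM in BRCA single-end from 29.1 in WT, and Tyk2 ranged from 3.34 to 5.97 FPKM over the 8 columns. Irf1 and Irf3, which drive early and virus-induced transcription, were not 2-fold apart between any genotype and WT. Irf3 was lower in BRCA than in WT in both layouts, at 15.1 against 19.99 FPKM single-end and 14.3 against 18.2 paired-end.

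Among 6 negative regulators, Socs3 and Ptpn6 were 2-fold higher in BRCA in both layouts, where 3.01% of all genes were. None was in CERM or AROM, where 1.12% and 0.383% of all genes were, and Socs1 stayed between 1.35 and 2.22 FPKM. Of 10 analysed genes that sense nucleic acid upstream of interferon, Tlr7 alone was 2-fold higher in BRCA in both layouts. None was in CERM or AROM, and the shares of all genes are those just given. Tlr7, the endosomal sensor of single-stranded RNA, was at 2.99 and 2.64 FPKM in BRCA and at 0.890 and 0.647 in WT. In CERM the layouts differed for Tlr7, with 1.25 FPKM single-end and 2.98 paired-end. Tmem173, the gene of STING, had log2 ratios of BRCA to WT of 0.38 and 0.56, and Mavs, the adaptor of the RNA sensors, of -0.02 and -0.07. Of 25 further interferon-inducible genes analysed, 7 and 11 were 2-fold higher in BRCA single-end and paired-end, 6 of them in both, where 3.65%, 5.01% and 3.01% of all genes were. In CERM and in AROM 0 of the 25 were higher in both layouts, where 1.12% and 0.383% of all genes were. None of the 25 was 2-fold lower than WT in any of the 3 models. The median log2 ratios of that list in BRCA were 0.62 and 0.68. Within it, the chemokine gene Cxcl10 was at 7.10 and 6.03 FPKM in BRCA and at 0.806 to 2.10 elsewhere. The RNA editing gene Adar had log2 ratios of BRCA to WT of 0.79 and 1.02, the membrane protein gene Ly6e 0.30 and 0.57, the immunoproteasome gene Psmb8 0.09 and 0.41 and the exonuclease gene Isg20 -0.01 and 0.61.

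Markers of immune cells moved with the BRCA columns. All 5 genes of the general leukocyte list were at least 2-fold higher than WT in both layouts, where 3.01% of all genes were. So were 5 of 5 neutrophil genes analysed, 6 of 6 B cell genes, 3 of 7 T cell genes and 5 of 8 macrophage genes. Ptprc, the common leukocyte antigen gene, was at 5.35 and 3.83 FPKM in WT, 4.47 and 3.03 in AROM, 7.06 and 9.17 in CERM, and 19.0 and 17.7 in BRCA. Cd79a of B cells was at 16.0 and 15.5 FPKM in BRCA against 2.40 and 1.57 in WT, and S100a9 of neutrophils at 92.2 and 74.1 against 3.51 and 2.01. Siglech, a marker of plasmacytoid dendritic cells, which are known as producers of type I interferon, was at 4.29 and 3.92 FPKM in BRCA and at 0.398 to 1.53 elsewhere. Of 5 plasmacytoid genes analysed, 2 were 2-fold higher in BRCA in both layouts, Siglech and Ly6d. Ly6d was at 102 and 95.1 FPKM in BRCA and at 16.1 to 24.2 elsewhere, and which cells gave its values was not tested. Of the others, Tcf4 had log2 ratios of 0.10 and 0.24 and Cox6a2 of -0.40 and -1.18, 2-fold lower in the paired-end columns. Klk1 had 0.83 and 1.04, and it passed the filter through the BRCA columns only. All of these but Siglech were named after their values were seen. Cox6a2 was at 184 to 718 FPKM and highest in CERM single-end, where the summed level of the skeletal muscle list was highest too. The part of muscle in the Cox6a2 values was not tested. None of 5 endothelial genes or of 4 basal epithelial genes was 2-fold higher in any model, and 1 basal gene was 2-fold lower in BRCA and in CERM, single-end only. No gene of these marker lists was listed at 0 in any column.

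In CERM some marker lists differed between the layouts. Of 5 leukocyte genes, 0 were 2-fold above WT single-end and 4 paired-end, where 3.64% and 3.72% of all genes were. Their median log2 ratios were 0.30 and 1.17 and their summed levels 98.7 and 176 FPKM. Macrophage genes went from 0 to 5 of 8, with medians of 0.21 and 1.35, and Itgam from 3.33 to 8.83 FPKM. Of the 35 interferon-stimulated genes, 1 had CERM ratios over 1.5-fold apart between the layouts, where 1450 of all 12782 genes had. Neutrophil genes had 1 of 5 past 2-fold single-end and 2 of 5 paired-end. S100a9 was past 2-fold in both, at 15.5 and 13.0 FPKM in CERM, with log2 ratios to WT of 1.87 and 2.22. The part of these cells in the CERM ratios was not tested. B cell and T cell genes had no member 2-fold from WT in CERM in either layout, with Cd3e at 5.22 and 3.99 FPKM. Skeletal muscle genes stood apart in the single-end CERM column, 6 of 6 being 2-fold above WT there and 1 in the paired-end column, with Ckm at 5689 and 4009.6 FPKM against 1766 and 3081. In AROM the luminal list was lower, 3 of 6 genes by 2-fold single-end and 6 of 6 paired-end (1.77% and 2.83% of all genes). Of fat cell genes 5 of 6 were 2-fold higher paired-end and 0 single-end, and of muscle genes 6 of 6 single-end and 0 paired-end. Over all genes 2.32% were higher in AROM single-end and 1.99% paired-end. Ifi27l2a and Xaf1 passed 2-fold in AROM in both layouts, and the part of the tissue makeup in their values was not tested.

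**Figure D5:**
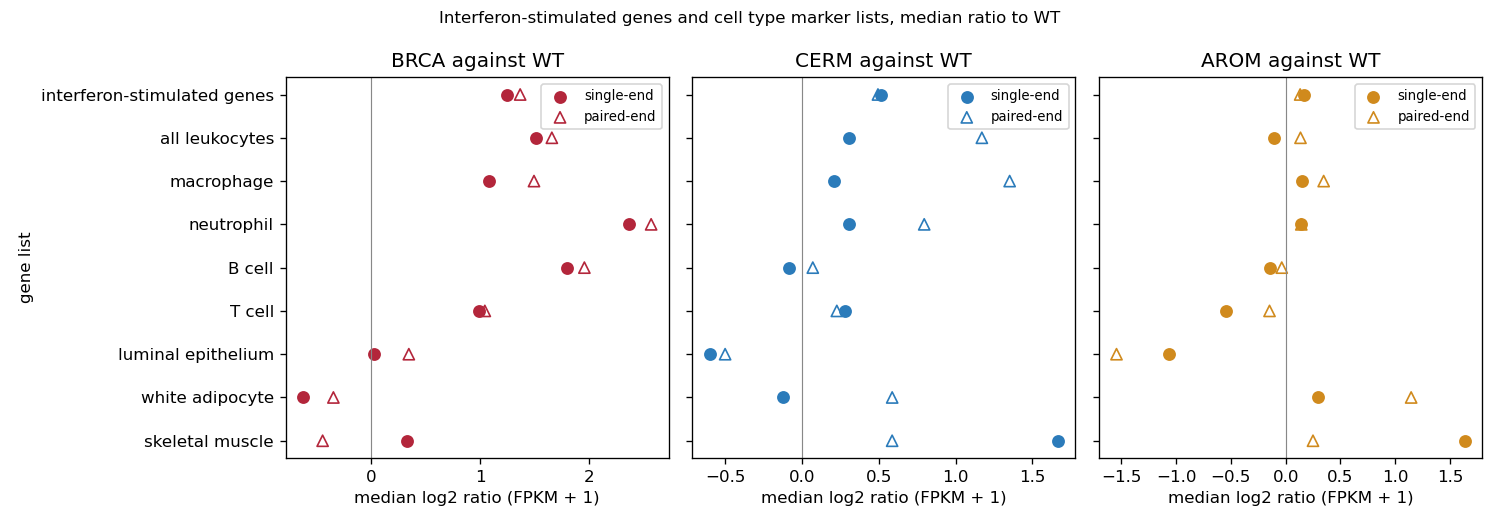
Median log2 ratio of FPKM + 1 to WT (x axis) of the interferon-stimulated genes and of 8 cell type marker lists (rows), 1 panel per genotype, with filled circles for single-end and open triangles for paired-end columns. In BRCA the leukocyte lists stand above 0 in both layouts, and in CERM the leukocyte medians are 0.30 and 1.17 and the interferon-stimulated medians 0.51 and 0.49.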

How the data were processed

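Whole mammary gland RNA of 17 libraries was deposited by the authors as 1 table of FPKM values for 30843 loci, pooled into 8 columns, 1 per genotype and read layout. Single-end columns stand for 2 libraries each, and the paired-end columns for 1 (WT), 3 (AROM), 3 (CERM) and 2 (BRCA), per the labels. FastQC, Trim Galore, TopHat, Cufflinks and the mouse build mm9 are named in the submitters' processing notes; the sources used here state no versions, no annotation and not how libraries were pooled. Column names were matched to the genotype and layout in the labels.

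Loci of several symbols (585) or of none (8119) were left out, and a symbol with several loci (799 symbols) was represented by the locus of highest mean. Genes that reached an FPKM of 1 in 2 or more of the 8 columns were analysed (12782). Ratios are log2 of FPKM + 1 over FPKM + 1 within a layout, and a call is a 2-fold difference. With no replicate values or counts, no test, error or depth could be given, and precision is unknown. A value listed at 0 may be a failed estimate. Whether reads were counted by strand is not stated, so overlapping and antisense genes may share them.

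The 36 genes and all other lists were chosen with earlier results of these data known. The result of 1 gene of the pathway lists is not reported here. Genes set to be described in full were 21 set by name plus the 3 highest and 3 lowest ratios to WT per model. Of the lowest, Ifi35, Cmpk2, Trim25, Ddx58, Dtx3l, Parp9 and Parp14 are given by ratios, ranges or part of their values only. The promoters shown were up to 6 of the genes set to be described in full, with a match. Alternatives were a pseudocount of 0.1, no filter, median-ratio size factors and quantile normalization. Others were chosen after seeing the data: every row of a gene, genes with a single row, and leaving out Oas3 and Mx1. The calculation was checked on simulated data. Python 3.11.15, pandas 2.3.3, numpy 2.4.6 and matplotlib 3.10.9 were used.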

Additional observations from a re-analysis of the deposited data

How the results depend on the processing

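The counts of genes at least 2-fold higher and the median ratios kept their direction under all 7 alternatives. Leaving out the filter could not change them, because all 35 genes with a row had passed it. Of 12 medians, 0 changed sign, and the furthest shift was 0.33 on the log2 scale, with quantile normalization. The counts moved by over 1.5 times in CERM against AROM only. The paired-end count of 2 became 8 with a pseudocount of 0.1, 1 with median-ratio size factors and 1 with quantile normalization. The count past 2-fold in both layouts, also 2, became 5, 1 and 1 under the same settings. The cause was not tested. No paired analysis was possible because the columns carry no replicate, and for the same reason no replicate could be left out. The depth behind the FPKM values is unknown, so no limit of detection could be set.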
